A study of Mus musculus with 25 samples.

Results

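The comparison here is of microglia 2 days after a spinal cord injury with microglia 1 day after it, in single-cell RNA-seq of cells sorted from the lesion of mouse spinal cord. Its members are the cells that the deposited annotation gives to its cell type 1, in the 3 libraries of day 1 (D1) and the 3 libraries of day 2 (D2) that hold 20 or more of them. These are 5355 cells, 3308 of D1 and 2047 of D2, of 13289 microglia and 30958 cells in all 25 libraries. The D1 libraries (mixed 1, 2 and 3) come from males labelled with the strain Cx3cr1CreERT2 and the sort label YFP+, which takes resident and infiltrating cells together, and hold 1197, 790 and 1321 microglia. The D2 libraries are resident 1, from males of the strain Cx3cr1CreERT2:R26tdTomato sorted as RFP+/YFP+, with 1500 microglia, and mixed 1 (female, 524 microglia) and mixed 2 (male, 23 microglia), both Cx3cr1CreERT2 and YFP+. All 6 are from injured cord, and every library of the series pools tissue of 1 to 3 mice. YFP follows the Cx3cr1 locus, which monocytes and macrophages also use, and tdTomato marks cells in which the Cre at that locus was active, so the sort alone does not define microglia. The labels put D2 among the time points although the series' design text lists 1, 3, 10 and 21 days and laminectomy controls.

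Microglia are the resident macrophages of the brain and cord. After an injury they lose much of their resting gene program, release chemokines and cytokines that call in blood leukocytes, take up debris and iron from lysed red cells, and divide to refill and wall off the lesion. Entry into division needs ribosomes and nucleotides first, then DNA and histone synthesis, then the mitotic kinases, cyclins and spindle proteins.

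Several facts bear on every value. All 3 D1 libraries lie in 1 of 7 sequencing pools and the D2 libraries lie in other pools, so the pool and the day cannot be told apart. The microglia of a library held 135097 (D2 mixed 2) to 7794902 unique molecular identifiers (UMIs, which count captured transcripts), with medians of 2492 to 3963 per cell. D2 mixed 2 stands apart, since 3.05% of its cells are microglia and 85.5% are macrophages. D1 mixed 3 also stands apart, with 46.2% of its microglia in the deposited cluster 2, a cluster of few UMIs that holds 14.95% and 14.94% of the microglia of the other D1 libraries and 8.93% to 17.4% of those of D2. Its microglia also had the highest median share of mitochondrial UMIs, 1.33% against 0.154% to 0.609% in the other 5 libraries. The part of that share in the falls that D1 mixed 3 carries was not tested, and a fit without cluster 2 is given with the alternatives below. Shares of the deposited clusters also differed between the days, with cluster 5 holding 50.9% to 83.0% at D1 and 25.4% to 33.8% at D2, cluster 6, which cell cycle genes lead, 0.303% to 1.504% and 30.4% to 47.9%, and cluster 4 14.7% of D2 resident 1 and at most 4.35% of the others. Of all cell barcodes 127 occur in more than 1 library, and 4 are shared among the microglia of these 6 libraries. Summed microglia markers, among them P2ry12, Tmem119 and Sall1, stood at 4787 to 9100 counts per 1000000 UMIs (CPM) at D1 and 7074 to 13230 CPM at D2, and none of the 9 passed the test. The labels do not say more of the animals behind each library, so p-values measure the spread between libraries.

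Counts were summed per library and tested with edgeR's quasi-likelihood test over 10801 genes, with time point and sex as terms and 17 microglia libraries of all times sharing the estimate of spread. Changes are log2, D2 minus D1, and a gene is said to have risen or fallen where its Benjamini-Hochberg adjusted p is under 0.05. At D2 931 genes had changed (8.62%), of which 514 were higher (4.76%) and 417 lower (3.86%). Of the higher genes 315 had risen by over 2 on the log2 scale, against 34 of the lower genes that had fallen by over 2. Without D2 mixed 2 the counts were 324 higher and 136 lower, without D1 mixed 3 they were 274 and 231, without D1 mixed 2 they were 200 and 137, and without D2 resident 1 they were 140 and 69. Without D3 resident 1, a library of another time in the shared fit, the balance turned to 533 higher and 588 lower. In the mixed libraries alone, which leave 2 libraries at D2, 10 genes were higher and 7 lower. Values by library are given below in CPM in the order D1 mixed 1, 2, 3 and then D2 resident 1, mixed 1, mixed 2. The CPM divide by the library's own microglia UMIs, whereas the fitted changes also use the scaling factors and the sex term.

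The clearest change was in genes of mitosis, which were low at D1 (64.8 to 362 CPM summed over the list) and high in every D2 library (2772 to 4159 CPM). All 30 genes of the mitosis list rose, with a median change of 3.77, where 4.76% of all tested genes rose and the median of all genes was 0.0229. In all 30 the 3 D2 libraries lay above the 3 D1 libraries, as they did for 25.4% of all tested genes. Cdkn3, a phosphatase that acts on cyclin-dependent kinases and lies at chr14:46760541-46771669 (GRCm38, plus strand), stood at 1.75, 0.855 and 0.928 CPM at D1 and at 62.7, 83.7 and 66.6 CPM at D2. Its D2 libraries were close together and far above D1, and it rose by 5.39 (SE 0.39, edgeR adjusted p = 9.2e-07).

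Genes of the chromosome and spindle moved in the same direction. Cenpa, the histone variant that marks centromeres, was 3.50, 8.26 and 3.25 CPM at D1 and 160, 187 and 133 CPM at D2, a change of 4.51 (SE 0.38, edgeR adjusted p = 3.7e-06). Kif11, the spindle motor that pushes the poles apart, went from 2.19, 1.99 and 0.232 CPM to 40.5, 71.2 and 81.4 CPM, a change of 5.12 (SE 0.69, edgeR adjusted p = 0.00049). Neither gene had a D1 library near the lowest D2 library. Kif23, a motor of the midzone needed to part the daughter cells, rose by 4.76, and Nusap1, which bundles spindle microtubules, by 5.35. Cenpf, a kinetochore protein, rose by 5.37.

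Of the regulators, Ccnb2, a B-type cyclin that activates Cdk1 at entry into mitosis, was 1.31, 1.99 and 0.232 CPM at D1 and 99.4, 112 and 51.8 CPM at D2, and it rose by 5.94 (SE 0.71, edgeR adjusted p = 0.00018). Ube2c, the ubiquitin-conjugating enzyme of the anaphase-promoting complex, rose from 12.3, 13.1 and 3.25 CPM to 258, 416 and 303 CPM, by 4.68. Mki67, the usual marker of cycling cells, was 5.69, 4.84 and 0 CPM at D1 and 123, 133 and 452 CPM at D2. Its highest value is in the library of 23 microglia, and its change was 5.74 (SE 1.05, edgeR adjusted p = 0.0042). Cdk1, the kinase that drives mitosis, had the smallest margin of the list, with 59.9, 47.9 and 11.6 CPM against 162, 247 and 185 CPM and a change of 1.97 (edgeR adjusted p = 0.039). It lost its call without any 1 of D1 mixed 2, D1 mixed 3 or the 3 D2 libraries (edgeR adjusted p = 0.0745 to 0.124). D1 mixed 3 was the lowest D1 library for every gene of the list but Cdkn3. The count of mitosis genes that rose was 29 without it, 29 without D2 mixed 2, 24 without D2 resident 1 and 3 in the mixed libraries alone, where the median change was 3.71 and that of all genes -0.458.

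**Figure D1:**
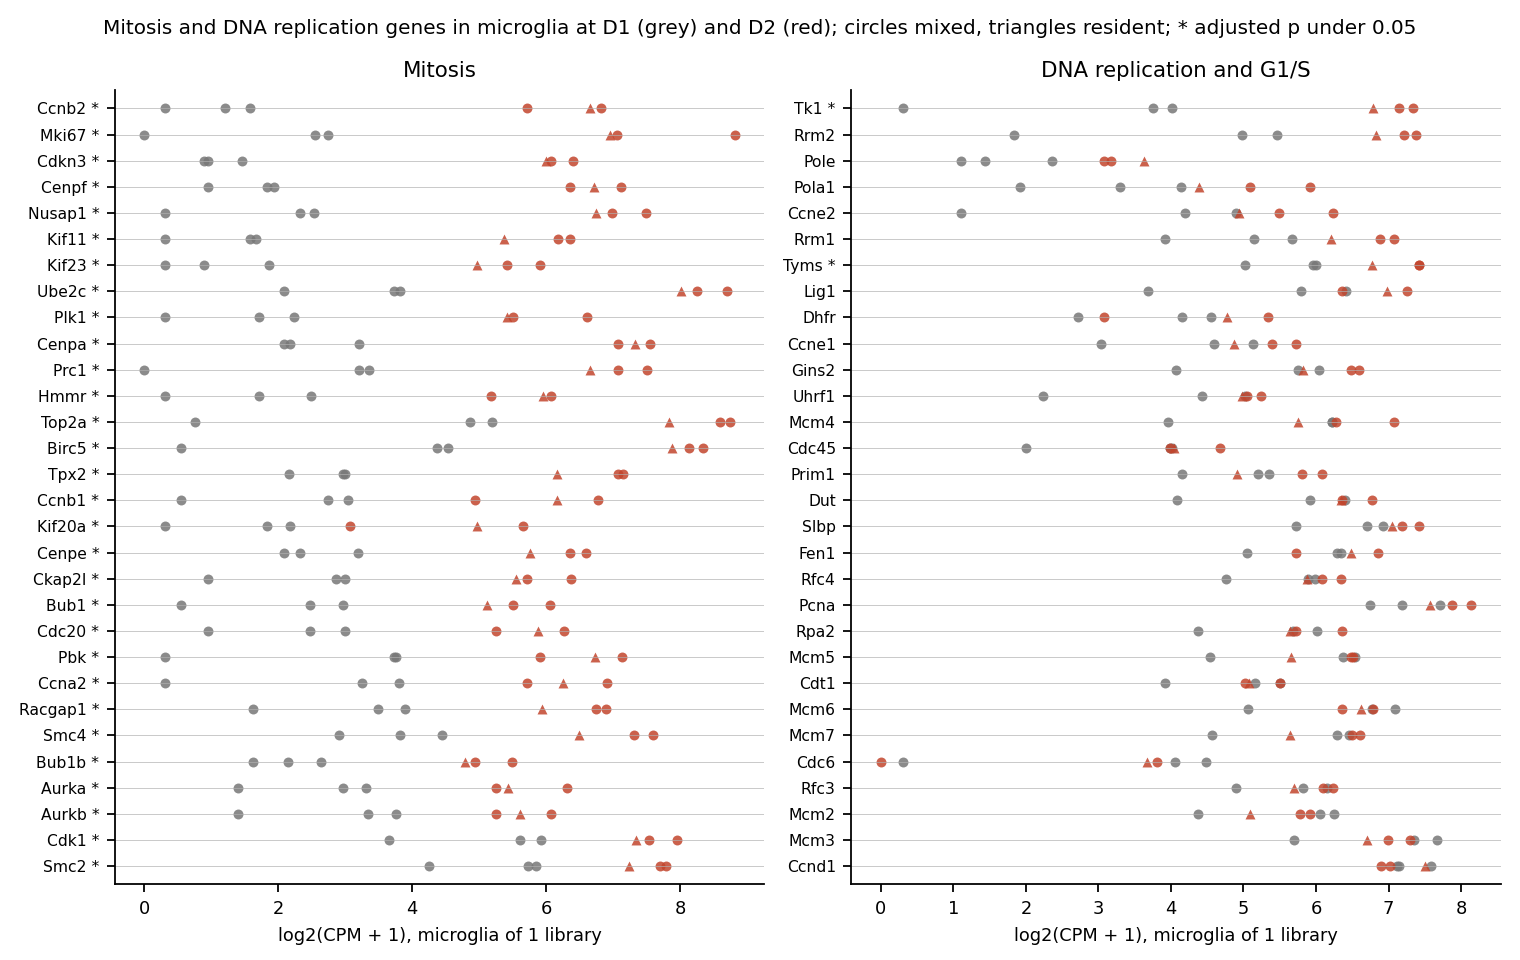
Levels of the mitosis genes (left) and the DNA replication and G1/S genes (right) in the microglia of each library, as log2(CPM + 1) on the horizontal axis, with D1 in grey, D2 in red, circles for mixed and triangles for resident libraries, and a star at genes with an edgeR adjusted p under 0.05. The D2 libraries lie to the right of all D1 libraries for all 30 mitosis genes and for 8 of the 30 replication genes, against 25.4% of all tested genes.

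The promoters of the mitosis list are shown because its members moved together. Genes of this group are known to be held down in resting cells through the cell cycle genes homology region (CHR) and to be driven through CCAAT boxes, which the factor NF-Y binds. In RefSeq promoter windows of GRCm38.p6 that run from 250 bases before to 50 after a start, 24 of the 30 genes had 25 windows. The letters TTTGAA of the CHR occurred on either strand in 80.0% of these, against 17.9% of all promoter windows and 12.3% of those of tested genes. The letters CCAAT occurred in 92.0%, against 37.4% and 38.1%. Over the whole fit TTTGAA was in 27.9% of the windows of genes that rose and 8.80% of the windows of genes that fell. A match is a description of these letters and not a bound site. The 150 bases before the start of 4 members follow, 5′ to 3′ in the direction of the gene, with CHR and CCAAT letters of either strand in capitals, from chr14:46760391-46760540 (plus strand), chr2:164769779-164769928 (plus), chr19:37376232-37376381 (plus) and chr7:80294326-80294475 (plus).
Cdkn3: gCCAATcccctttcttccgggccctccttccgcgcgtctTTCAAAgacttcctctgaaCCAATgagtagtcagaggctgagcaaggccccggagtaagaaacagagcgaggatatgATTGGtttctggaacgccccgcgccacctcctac
Ube2c: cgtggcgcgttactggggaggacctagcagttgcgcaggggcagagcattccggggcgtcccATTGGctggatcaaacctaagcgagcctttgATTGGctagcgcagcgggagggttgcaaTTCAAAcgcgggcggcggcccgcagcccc
Kif11: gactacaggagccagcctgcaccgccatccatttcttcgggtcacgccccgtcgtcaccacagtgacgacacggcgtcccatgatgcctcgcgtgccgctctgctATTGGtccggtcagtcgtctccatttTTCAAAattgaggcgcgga
Prc1: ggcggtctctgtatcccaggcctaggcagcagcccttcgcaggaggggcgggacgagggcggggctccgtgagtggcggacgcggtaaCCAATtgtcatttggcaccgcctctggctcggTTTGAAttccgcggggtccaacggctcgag
In Kif11 and Prc1 a CCAAT box stands before the CHR, in Ube2c a pair does, and in Cdkn3 the CHR lies between CCAAT boxes.

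The 5 largest rises, among called genes that did not overlap between groups and reached a mean of 50 CPM at D2, were all histone genes. Of these, Hist1h1d was called without each library in turn but not at equal depth (edgeR adjusted p = 0.0713), while the calls of Hist1h3c, Hist1h1a, Hist1h1e and Hist1h1b were lost without D1 mixed 2 or D2 mixed 2, among others (adjusted p = 0.0507 to 0.126). Replication-dependent histones package new DNA and are made while DNA is copied. Of the 10 on the list 8 rose, against 4.76% of all genes, and in all 10 the D2 libraries were above D1, as in 25.4% of all genes. They are measured here by priming on polyA, which most transcripts of these genes lack, so the level is that of the captured part. Hist1h1b, a linker histone, was 9.19, 11.1 and 0.696 CPM at D1 and 137, 906 and 947 CPM at D2, a change of 6.66 (SE 1.54, edgeR adjusted p = 0.015) that missed the threshold without D1 mixed 2, D1 mixed 3 or D2 mixed 2 (adjusted p = 0.0507 to 0.053). Hist1h2ap, a core histone, went from 3.72, 16.8 and 2.79 CPM to 115, 721 and 548 CPM, a change of 5.16 (SE 0.84, edgeR adjusted p = 0.0021). In both, the resident D2 library was the lowest of D2 by several fold and was still above D1. Hist1h3d had no count at D1 and 157 at D2, which is at least 65.3-fold higher when D1 is set at 3 counts over the group. It was not called without D2 resident 1 (adjusted p = 0.0963). Hist1h1c, Hist1h1d and Hist1h1e, linker histones of the same cluster on chromosome 13, rose by 5.04, 7.26 and 6.71. The number of list members that rose was 4 without D2 mixed 2, 5 without D1 mixed 3 and 4 without D1 mixed 2. Summed over the list, the D1 libraries (23.9 to 54.1 CPM) lay below the 2 controls (116 to 341 CPM), so the rise starts from a level under theirs. Histone genes of 1 cluster are near copies of each other, so reads could be split among them.

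Few genes of DNA replication and of the step into S phase passed the test. Of 30 measured, 2 rose (6.67%, against 4.76% of all genes) and none fell. The median change of the 30 was 0.47, with 23 positive. The list summed to 715.5 to 2122 CPM at D1 and 2030 to 2687 CPM at D2. In 8 of the 30 the D2 libraries were above D1, a share near the 25.4% of all genes. Tk1, thymidine kinase, was 15.1, 12.5 and 0.232 CPM at D1 and 109, 160 and 141 CPM at D2, and it rose by 3.82 (SE 0.78, edgeR adjusted p = 0.0078). Tyms, thymidylate synthase, rose by 1.21 (edgeR adjusted p = 0.044), a call lost without any 1 of the 6 libraries. Other members were already present at D1. Pcna, the sliding clamp of the replication fork, was 209, 145 and 107 CPM at D1 and 189, 234 and 281 CPM at D2, and Mcm3, of the replicative helicase, was 203, 163 and 50.8 CPM and then 103, 155 and 126 CPM. For both the groups overlap. D1 mixed 3 was the lowest D1 library in both.

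E2F factors are known to drive these genes through sites such as TTTGGCGC and TTTCCCGC. Either was found, on either strand, in 27.6% of the 29 windows of 24 replication genes, in none of the 25 mitosis windows, and in 1.56% of all windows and 3.12% of those of tested genes. Pola1, the catalytic subunit of DNA polymerase alpha, carries one and is shown over chrX:93632156-93632305 (minus strand) with the E2F letters in capitals.
Pola1: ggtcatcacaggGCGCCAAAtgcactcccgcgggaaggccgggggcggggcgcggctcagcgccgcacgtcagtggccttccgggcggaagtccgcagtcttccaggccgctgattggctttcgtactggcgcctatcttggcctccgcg
Pola1 itself was 16.6, 8.83 and 2.79 CPM at D1 and 20.01, 33.1 and 59.2 CPM at D2, a change of 1.58 that did not pass the test (edgeR adjusted p = 0.13).

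In summed counts a higher level can come from more cells with a transcript or from more of it per cell, so cells were also counted. Each cell was thinned to 1000 UMIs, and a cell was counted where 2 or more of these fell on the 30 mitosis genes. The share of microglia was 5.70% (95% exact interval 4.45 to 7.17), 4.56% (3.21 to 6.25) and 0.758% (0.364 to 1.39) in the D1 libraries. It was 44.7% (42.2 to 47.3) in D2 resident 1, 59.9% (55.5 to 64.1) in D2 mixed 1 and 52.2% (30.6 to 73.2, from 23 cells) in D2 mixed 2. Intervals cover counting error only. The means were 3.67% ± 2.59 (SD, n = 3) at D1 and 52.3% ± 7.58 (SD, n = 3) at D2, a difference of 48.6 percentage points. An exact 2-sided permutation test gave p = 0.1, the smallest that 3 against 3 allows. Thinning left out 20 of the 5355 cells, and without thinning the shares were 21.8%, 21.4% and 3.56% at D1 and 64.1%, 75.0% and 69.6% at D2.

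Free RNA in the droplets can give such UMIs to cells that do not divide. Neutrophil-like cells were taken as past division, which was not tested. They reached the count in 1 of 83 cells (1.20%) over the 6 libraries, at a median of 1994 UMIs where microglia had 3248. That cell was 1 of 13 in D2 resident 1, while 49 of the 83 were from D2 mixed 2 and the D1 libraries held 10, 2 and 2, too few to set a background for D1. Macrophages of D2 resident 1, from the same library as these microglia, reached it in 8 of 180 thinned cells (4.44%). Their 95% exact interval of 1.94 to 8.57% does not meet that of the microglia of the library, but it covers counting error only. These macrophages held a median of 7454 UMIs against 3963 in the microglia. Thinning thus keeps a smaller part of each macrophage, so the thinned shares cannot set a level of free RNA. With 1 or more UMIs as the criterion, microglia of that library stood at 58.7% (56.1 to 61.2), macrophages at 16.1% (29 of 180, 11.1 to 22.3) and neutrophil-like cells at 53.8% (7 of 13, 25.1 to 80.8). The few neutrophil-like cells leave a wide interval that includes the microglia's share, while that of the macrophages lies below it. Without thinning, at 2 or more UMIs, macrophages stood at 37 of 185 cells and neutrophil-like cells at 3 of 14 (21.4%), against 64.1% of the microglia.

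**Figure D2:**
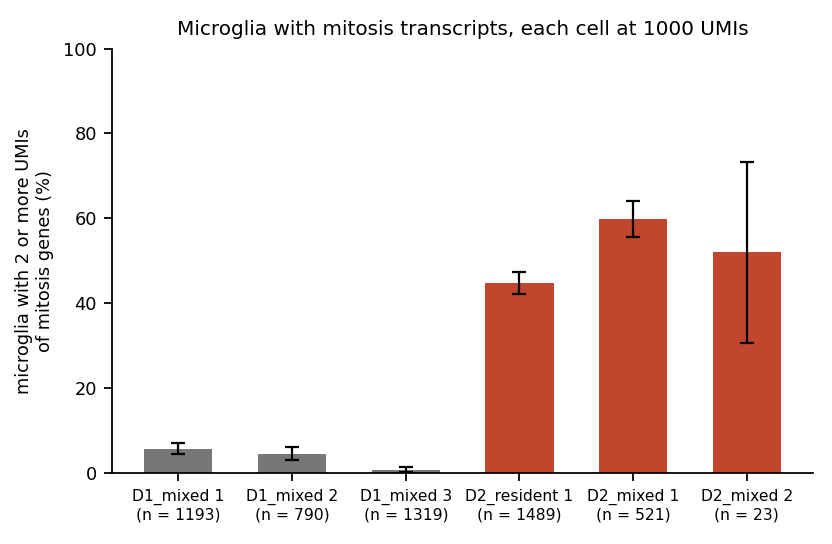
Share of microglia (vertical axis, percent) with 2 or more UMIs of mitosis genes after each cell was thinned to 1000 UMIs, for the 6 libraries with the number of cells used; bars start at 0 and the error bars are 95% exact binomial intervals. The D1 bars stand at 0.758% to 5.70% and the D2 bars at 44.7% to 59.9%, with a wide interval for the 23 cells of D2 mixed 2.

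When cells of the deposited clusters 6, 7 and 10, which cell cycle genes lead, were left out, 483 genes passed the threshold (260 higher, 223 lower), of which 441 were among the 931. The mitosis list then kept a median change of 1.78, with 9 of 30 genes that rose. Those clusters were drawn from the same genes, so the drop is in part fixed by leaving them out.

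Against the rise in division genes, genes that build ribosomes fell. Of 20 on the list of ribosome biogenesis and Myc targets, 12 fell and none rose, where 3.86% of all genes fell. All 20 had a negative change, with a median of -1.33, and in 18 the D2 libraries were below every D1 library, as in 8.51% of all genes. Dkc1, the pseudouridine synthase of the small nucleolar RNAs (chrX:75095854-75109777, GRCm38, plus strand), was 81.8, 93.2 and 88.4 CPM at D1 and 42.1, 46.6 and 44.4 CPM at D2, tight in both groups, and fell by 1.40 (SE 0.23, edgeR adjusted p = 0.0021). Npm1, nucleophosmin, an abundant nucleolar chaperone, was 1817, 1948 and 1611 CPM at D1 and 734, 1289 and 992 CPM at D2, a change of -1.31 (SE 0.27, edgeR adjusted p = 0.0077).

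Nop56, Nop58 and Fbl, which form the core of the box C/D particles that methylate ribosomal RNA, fell by 1.29, 1.59 and 1.29. Pa2g4, which binds ribosomal RNA, went from 492, 551 and 408 CPM to 189, 305 and 237 CPM and fell by 1.39 (SE 0.25, edgeR adjusted p = 0.0034). In the polyamine route, Odc1, the first enzyme, fell by 1.77, Srm, spermidine synthase, by 1.43, and Eif5a, which carries the spermidine-derived residue hypusine, by 1.17. Myc itself, a transcription factor for this group, was 53.2, 52.1 and 47.3 CPM and then 30.0, 26.6 and 14.8 CPM. Its change of -1.22 did not pass the test (edgeR adjusted p = 0.068). The D2 resident library was the lowest of the 3 for many of these genes, and without it 2 of the 20 fell, against 10 without D2 mixed 2 and 13 without D1 mixed 3. In the mixed libraries alone edgeR called none, with 15 of the 20 at an unadjusted p under 0.05 and a median change of -1.54, where the median of all genes was -0.458 in that fit. DESeq2 on all 17 libraries called 18 of the 20 lower. Dkc1 and Pa2g4 were called without each library in turn, but at equal depth Dkc1 changed by -0.51 and was not called (edgeR adjusted p = 0.647), while Npm1 (adjusted p = 0.0617), Nop58 (0.0593), Odc1 (0.0714), Nop56 (0.0566), Fbl (0.0958), Srm (0.155) and Eif5a (0.123) were not called without D2 resident 1. Srm and Eif5a were also not called without D1 mixed 2 or D2 mixed 2 (edgeR adjusted p = 0.0604 to 0.0739).

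**Figure D3:**
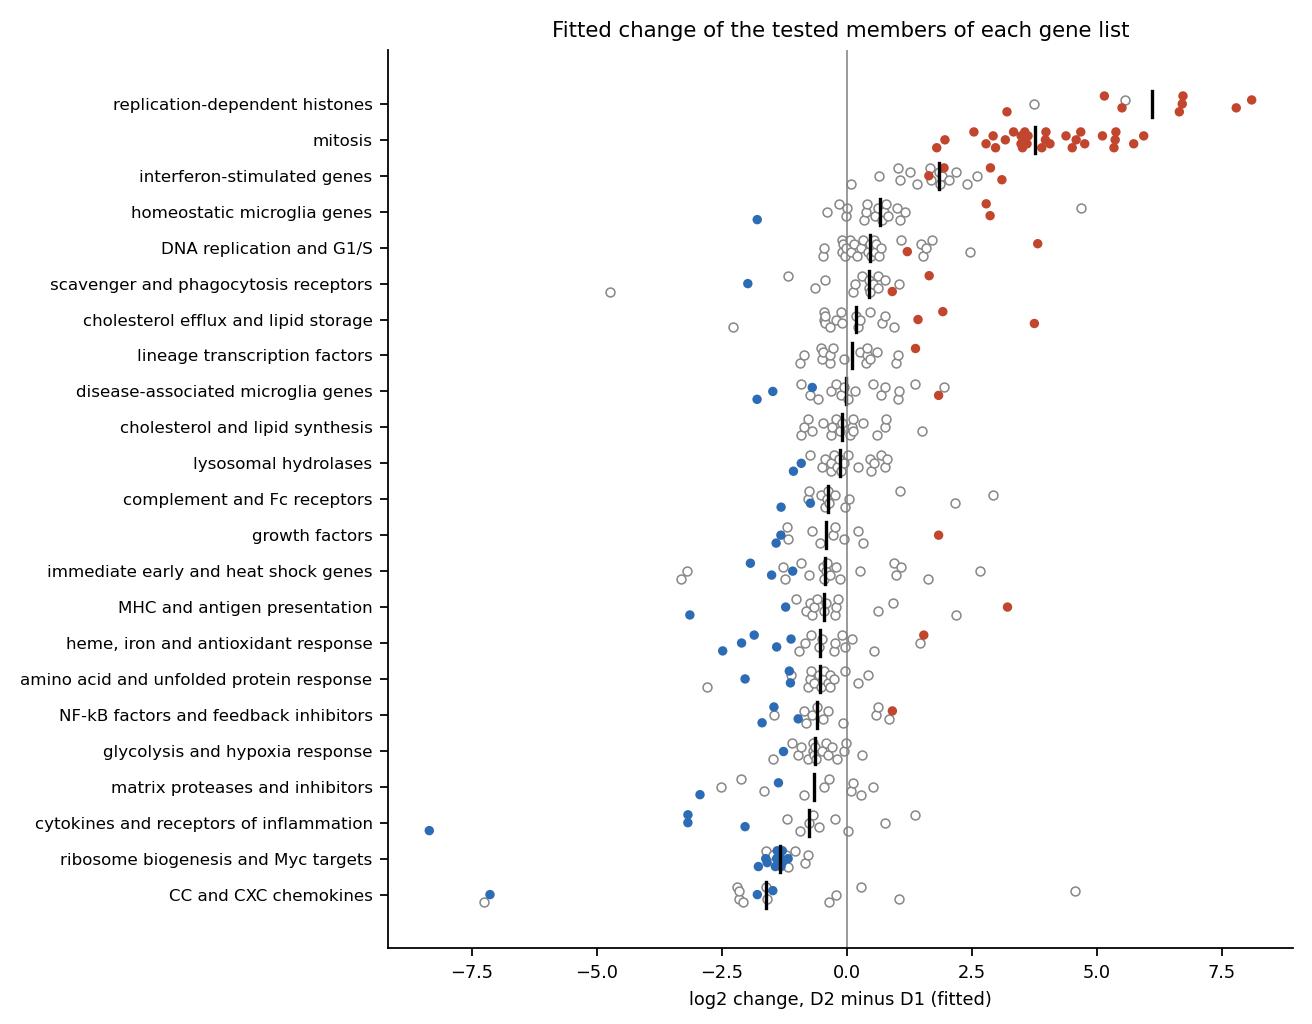
Fitted log2 change (D2 minus D1, horizontal axis) of each tested member of the 23 gene lists, with filled red or blue points for members that rose or fell at an edgeR adjusted p under 0.05, open points for the others, and a black bar at the median of the list. The histone and mitosis lists lie to the right with medians of 6.11 and 3.77, and the ribosome biogenesis and chemokine lists to the left with medians of -1.33 and -1.61.

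Inflammatory signals were lower at D2 in part of each list. Of 15 measured chemokines 3 fell (against 3.86% of all genes) and none rose, with a median change of -1.61, and in 6 the D2 libraries were below D1, as in 8.51% of all genes. Ccl9 was 195, 304 and 512 CPM at D1 and 95.3, 146 and 148 CPM at D2, a change of -1.79 (SE 0.52, edgeR adjusted p = 0.041). Ccl6 fell by 1.48. Cxcl2, a neutrophil attractant, was 2.19, 1.14 and 202 CPM and then 0.641, 0 and 0 CPM, so that its fitted fall of 7.14 rests on D1 mixed 3. Without the cells of cluster 2 its change was -4.59 and was not called (edgeR adjusted p = 0.0691). Summed neutrophil markers were also highest in D1 mixed 3, at 15.5, 45.3 and 97.2 CPM at D1 and 5.90 to 14.8 CPM at D2, with 1 of 7 at 0 in all 6 libraries. Most of the D1 sum was S100a8 (10.7, 44.7 and 92.8 CPM). Other members differed, with S100a9 highest in D1 mixed 1 (4.59 CPM) and Mmp8 in D2 mixed 2 (7.40 CPM). The part of these markers in the result was not tested. Ccl12 and Ccl2 did not pass. Ccl12, a monocyte attractant that binds Ccr2, was 3193, 5772 and 1201 CPM at D1 and 1389, 1159 and 666 CPM at D2 (edgeR adjusted p = 0.065), and Ccl2 was 899, 1425 and 707 CPM and then 460, 270 and 141 CPM (edgeR adjusted p = 0.051). With the sort as a term both were called lower (edgeR adjusted p = 0.035 and 0.0121), as was Ccl12 without D1 mixed 3 (0.0418). With that term Ccl6 kept its call (edgeR adjusted p = 0.0382), while Ccl9 (0.0633) and Cxcl2 (0.322) lost theirs. Without D2 mixed 2, or without D2 resident 1, edgeR called no chemokine, with 9 and 7 of 15 at an unadjusted p under 0.05, and without D1 mixed 2 it called 1. DESeq2 on all libraries called 5 lower.

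Among cytokines and their receptors 4 of 13 fell (30.8%, against 3.86% of all genes) and none rose. Without D2 resident 1 the count was 1, Il4ra, and without D2 mixed 2 it was 2. Il1rn, the interleukin-1 receptor antagonist, was 40.9, 44.2 and 124 CPM at D1 and 7.57, 14.5 and 0 CPM at D2, a change of -3.17 (SE 0.66, edgeR adjusted p = 0.0088) that was not called without D2 resident 1 (adjusted p = 0.132) and was -2.47 without D1 mixed 3. Il4ra, a receptor chain for interleukins 4 and 13, was 73.9, 207 and 220 CPM and then 55.3, 58.7 and 29.6 CPM, and fell by 2.03 (SE 0.40, edgeR adjusted p = 0.0056). Il1r2, the decoy receptor of interleukin-1, had 538 counts at D1 and 1 at D2, a ratio of 431 (95% counting interval 77.3 to 17000), with 116 CPM in D1 mixed 3 and 2.84 and 6.84 CPM in the others. Its fitted change of -8.35 was -5.21 without D1 mixed 3, and the call was lost without D2 resident 1 or D2 mixed 2 (edgeR adjusted p = 0.397 and 0.0519). Il1rn and Il1r2 are both known as brakes on interleukin-1 signalling. Tnf was 24.5, 12.8 and 22.7 CPM and then 23.6, 4.51 and 14.8 CPM, groups that overlap (edgeR adjusted p = 0.42).

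Of 15 NF-kB factors and feedback genes 3 fell (against 3.86% of all genes) and 1 rose. Without D1 mixed 3, D2 resident 1 or D2 mixed 2 the call of Sod2 was the only one left. Sod2, the mitochondrial superoxide dismutase that NF-kB induces, was 166, 181 and 267 CPM at D1 and 87.5, 97.8 and 51.8 CPM at D2, and fell by 1.69 (SE 0.30, edgeR adjusted p = 0.0035). Nfkb1, which encodes the p105 precursor, rose by 0.91 (SE 0.25, edgeR adjusted p = 0.035), a call lost without any 1 of the 6 libraries but D2 mixed 1 (adjusted p = 0.0657 to 0.265) and with the sort as a term (0.0744). Of 22 immediate early and heat shock genes 3 fell (against 3.86% of all genes) and none rose, and 1 fell without D2 resident 1 or D2 mixed 2. Zfp36, which speeds the decay of cytokine mRNAs, was 109, 120 and 143 CPM and then 73.8, 40.6 and 44.4 CPM, a change of -1.50 (SE 0.30, edgeR adjusted p = 0.0069). Cd14, the co-receptor for lipopolysaccharide, fell from 925, 716 and 1156 CPM to 303, 294 and 178 CPM, by 2.22 (SE 0.35, edgeR adjusted p = 0.0015). Its call held without each library in turn, as did those of Il4ra, Sod2 and Zfp36.

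Adam8, a metalloprotease that sheds membrane proteins, was 178, 256 and 405 CPM at D1 and 56.3, 53.6 and 7.40 CPM at D2, a change of -2.93 (SE 0.48, edgeR adjusted p = 0.0022). Sdc4, a syndecan, fell by 2.61, or by 1.82 without D1 mixed 3, its highest library. Tgm2, a transglutaminase, fell by 2.26 and Srgn, the proteoglycan of secretory granules, by 1.93. Msr1, the class A scavenger receptor, was 527, 831 and 850 CPM and then 177, 304 and 266 CPM, and fell by 1.98 (SE 0.33, edgeR adjusted p = 0.0022). In the same list of 18 scavenger and phagocytosis receptors Colec12 and Scarb2 rose, by 1.65 and 0.91, and 15 did not pass, where 4.76% of all genes rose and 3.86% fell. Both calls were lost without D1 mixed 3, D2 resident 1 or D2 mixed 2, which left Msr1 alone, and with the sort as a term (edgeR adjusted p = 0.0522 and 0.0811). C5ar1, the receptor for the complement fragment C5a, fell by 1.31 (edgeR adjusted p = 0.03), a call lost without D1 mixed 1, D1 mixed 2, D2 resident 1 or D2 mixed 2 (adjusted p = 0.074 to 0.124).

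Cd74, the invariant chain of MHC class II, was even within D1, with 183, 179 and 160 CPM, and lower and more spread at D2, with 34.9, 9.02 and 22.2 CPM, and fell by 3.14 (SE 0.39, edgeR adjusted p = 0.00031). It was called without each library in turn, with a change of -4.17 without D2 resident 1. Of the 17 genes of antigen presentation measured, Cd86, a costimulatory ligand, also fell, and Cd40, a receptor for T cell help, was called higher at 0.656, 0 and 0.232 CPM and then 5.77, 2.01 and 0 CPM. The groups overlap for Cd40, and its call was lost without D1 mixed 2 or D1 mixed 3 (edgeR adjusted p = 0.118 and 0.0766), with the sort as a term (0.126) and without the cell cycle clusters (0.106). Without D2 resident 1 Cd40 was not among the genes tested. The call of Cd86 was lost without D1 mixed 3, D2 resident 1 or D2 mixed 1 (edgeR adjusted p = 0.0544 to 0.085). The other 14, the class II chains H2-Aa, H2-Ab1 and H2-Eb1 among them, did not pass the test, so that 11.8% of the list fell and 5.88% rose, against 3.86% and 4.76% of all genes.

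**Figure D4:**
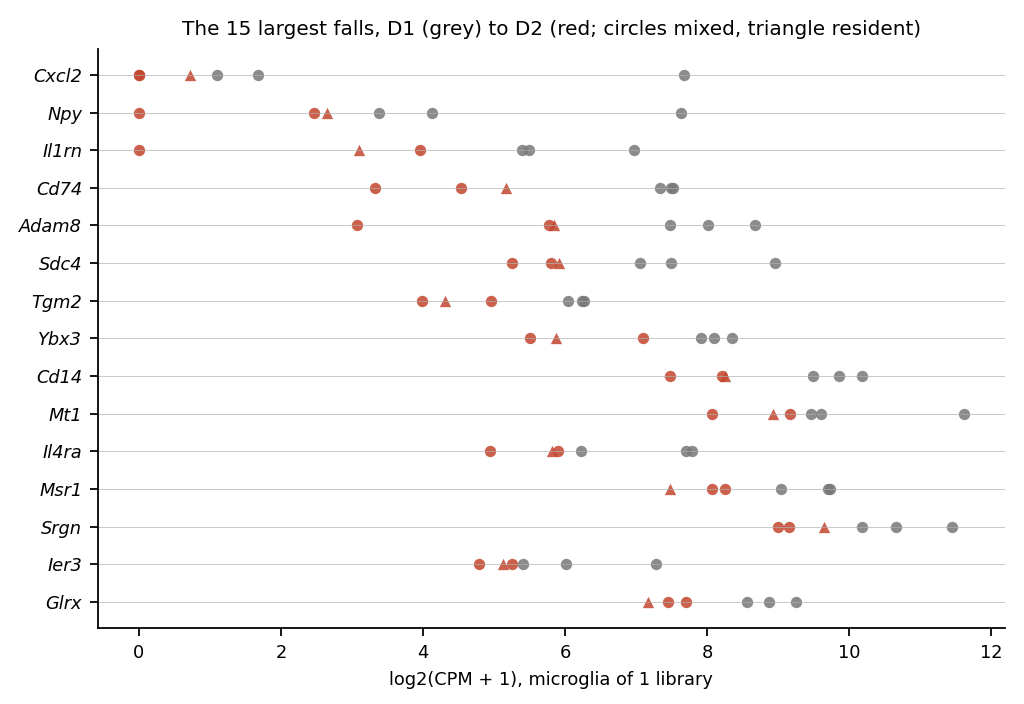
Levels of the 15 genes with the largest falls among those that passed the test, did not overlap between groups and reached a mean of 50 CPM at D1, as log2(CPM + 1) on the horizontal axis for each library, with D1 in grey, D2 in red, circles for mixed and a triangle for the resident library. Cd74 and Tgm2 are even within D1, while for Cxcl2, Npy and Mt1 one D1 library, mixed 3, stands far above the other two.

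Genes for heme, iron and metal handling fell in 5 of 18 members (against 3.86% of all genes), and 1 rose (against 4.76%). Fth1, ferritin heavy chain, which stores iron, was among the most abundant transcripts, with 13481, 16538 and 30715 CPM at D1 and 10710, 9145 and 9312 CPM at D2, a change of -1.40 (SE 0.32, edgeR adjusted p = 0.014). Hmox1, heme oxygenase 1, was 882, 1372 and 1934 CPM and then 604, 651 and 163 CPM, a change of -1.85 (SE 0.45, edgeR adjusted p = 0.02). Mt1, a metallothionein, was 776, 706 and 3124 CPM and then 487, 575 and 266 CPM. D1 mixed 3 was the highest library for all 3 of these genes. Without it none of the 3 passed (Fth1 and Hmox1 at adjusted p of 0.0557 to 0.0698, Mt1 at 0.0994 to 0.103, over the libraries whose loss ended the call), and 1 gene of the list fell, as without D2 mixed 2. The gene left without D1 mixed 3, Slc11a1, the Nramp1 metal transporter of phagosomes, was 162, 160 and 165 CPM at D1 and 119, 75.2 and 96.2 CPM at D2, and fell by 1.11 (SE 0.23, edgeR adjusted p = 0.009). Slc40a1, ferroportin, the iron exporter, rose by 1.54 (edgeR adjusted p = 0.046), with groups that overlap, and was called without D2 mixed 1 but not without any 1 of the other 5 libraries (adjusted p = 0.0544 to 0.669).

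Most genes of glucose and amino acid supply had negative changes, but few passed the test. Of 19 genes of glycolysis and hypoxia 18 had a negative change, with a median of -0.63, and 1 fell past the threshold (5.26%, near the 3.86% of all genes). This was Slc2a1, the glucose transporter GLUT1, at 57.1, 80.4 and 68.7 CPM and then 42.8, 31.1 and 22.2 CPM (change -1.26, SE 0.29, edgeR adjusted p = 0.014), which was not called without D1 mixed 2 (adjusted p = 0.0569). Ldha, lactate dehydrogenase A, at 1186, 1353 and 1233 CPM and then 697, 1026 and 607 CPM, did not pass (edgeR adjusted p = 0.054). Of the amino acid and unfolded protein response, Slc7a5, a transporter of large neutral amino acids, Atf4, the central factor of that response, and Dnajb9, a chaperone of the endoplasmic reticulum, fell by 2.03, 1.12 and 1.15, and 17 of 20 did not pass, where 3.86% of all genes fell. Without D1 mixed 2, D2 resident 1 or D2 mixed 2 edgeR called 1 of the 20. Of 19 genes of cholesterol and lipid synthesis edgeR called none, DESeq2 called none and none had an unadjusted p under 0.05. Mif, a secreted cytokine and tautomerase, fell from 1159, 1380 and 1409 CPM to 500, 808 and 555 CPM, by 1.41 (SE 0.29, edgeR adjusted p = 0.0073), a call lost without D2 resident 1 (adjusted p = 0.0668).

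Interferon-stimulated genes had positive changes. All 19 measured had a positive change, with a median of 1.84, and 4 rose (against 4.76% of all genes), Stat2, Oasl2 and Trim30a among them. Stat2, a transcription factor that interferon receptors activate, was 1.09, 1.99 and 3.95 CPM and then 30.8, 7.52 and 37.0 CPM, a change of 2.88 (SE 0.65, edgeR adjusted p = 0.014). Oasl2, an oligoadenylate synthetase-like antiviral protein, and Trim30a, a ubiquitin ligase, rose by 3.11 and 1.64. D2 resident 1 was higher than D2 mixed 1 for each of these 3. The list summed to 748 to 1112 CPM at D1 and 1369 to 3867 CPM at D2, with the resident library highest, and in the laminectomy controls the resident library (3106 CPM) was again above the mixed one (928 CPM). Without D2 resident 1 edgeR called none of the list, with 1 of 19 at an unadjusted p under 0.05, 14 positive changes and a median of 0.52. With the sort as a term 3 were called, with 17 positive changes and a median of 0.80. Stat2 also lost its call without D1 mixed 1 or D1 mixed 2 (edgeR adjusted p = 0.0519 and 0.0586), as did Oasl2 (0.0784 and 0.0958). The Trim30a call was lost without any 1 of the 6 libraries but D2 mixed 1 (edgeR adjusted p = 0.0577 to 0.395) and with the sort as a term (0.0707).

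The sites that the interferon factor complex binds are shown for a gene that passed the test in the fit of all 17 libraries and for one that did not. The core, TTTC, any 2 bases and TTTC again, was found on either strand in 66.7% of 15 windows of 13 genes of the list, against 3.44% of all windows and 3.32% of those of tested genes. In the 150 bases before the start of Trim30a (chr7:104465194-104465343, minus strand) and Ifit3 (chr19:34583379-34583528, plus strand) it is in capitals.
Trim30a: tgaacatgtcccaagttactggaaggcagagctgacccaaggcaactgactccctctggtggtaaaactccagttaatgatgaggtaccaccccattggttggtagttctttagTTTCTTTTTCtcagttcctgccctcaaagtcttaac
Ifit3: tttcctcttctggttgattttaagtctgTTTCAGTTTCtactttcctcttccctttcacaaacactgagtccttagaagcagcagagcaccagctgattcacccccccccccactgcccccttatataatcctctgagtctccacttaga
Ifit3, which blocks translation of foreign RNA with its partner Ifit1, was 9.19, 8.83 and 26.5 CPM at D1 and 190, 24.1 and 81.4 CPM at D2, and D2 mixed 1 was within the D1 range (edgeR adjusted p = 0.15).

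Few genes of the resting program passed the test. Of 20 measured 2 rose and 1 fell, where 4.76% and 3.86% of all genes did, and 16 had a positive change with a median of 0.67. Slc2a5, the fructose transporter GLUT5, was 4.16, 1.71 and 3.02 CPM at D1 and 35.0, 17.5 and 7.40 CPM at D2, and rose by 2.87 (SE 0.41, edgeR adjusted p = 0.00075). In the mixed libraries alone its change was 0.72 (edgeR adjusted p = 0.857), and at equal depth it was 2.19 (0.351). Cst3, cystatin C, an inhibitor of cathepsins and one of the most abundant transcripts, fell from 18262, 15838 and 25485 CPM to 10684, 4712 and 6292 CPM, by 1.79 (SE 0.34, edgeR adjusted p = 0.0054). P2ry12, the ADP receptor that guides processes, was 122, 98.0 and 76.1 CPM and then 253, 145 and 207 CPM, above D1 in each D2 library but not past the test (edgeR adjusted p = 0.29). Cx3cr1, the fractalkine receptor, was 6.13, 4.27 and 6.96 CPM at D1 and 464, 10.0 and 66.6 CPM at D2 (edgeR adjusted p = 0.059). Its high value is in the resident library, without which the change was 0.30, and the locus carries the inserted Cre in all these mice, so its level is set beside the strain and sort. Among lineage factors Mef2a rose by 1.37 (edgeR adjusted p = 0.038), a call lost without any 1 of the 6 libraries but D2 mixed 1 (adjusted p = 0.072 to 0.173), and 17 of 18 did not pass, where 4.76% of all genes rose.

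Of 20 genes of the disease-associated program 3 fell and 1 rose, where 3.86% and 4.76% of all genes did, and 1 fell and none rose without D1 mixed 2 or D2 resident 1. Lpl, lipoprotein lipase (chr8:68880491-68907448, GRCm38, plus strand), was 1141, 1037 and 936 CPM at D1 and 453, 354 and 340 CPM at D2, and fell by 1.79 (SE 0.25, edgeR adjusted p = 0.00075). It was called without each library in turn. Igf1, a growth factor for neurons and glia, was 13.6, 7.69 and 4.64 CPM and then 40.9, 28.6 and 44.4 CPM, and rose by 1.84 (SE 0.45, edgeR adjusted p = 0.02), a call lost without D1 mixed 2, D1 mixed 3 or D2 resident 1 (adjusted p = 0.0739 to 0.187). Spp1, osteopontin, was at 16254 to 38319 CPM in D1 and 17930 to 24580 CPM in D2, and Apoe, a lipid carrier, at 909 to 1341 CPM and 781 to 3301 CPM. Both overlap. Apoc1 and Apoc4, neighbours of Apoe, were called higher (changes 1.92 and 3.76) but were at 0 in D2 mixed 2 and lost the call without D2 resident 1 (edgeR adjusted p = 0.257 and 0.0792).

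Across the other times the lists took different courses, given here as summed CPM without a test. The mitosis list was 58.1 to 170 CPM in 2 controls, 64.8 to 362 CPM at D1, 2772 to 4159 CPM at D2, 1904 to 2832 CPM in 5 libraries of D3, 271 to 547 CPM in 3 of D10 and 163 CPM in the library of D21. The ranges of D2 and D3 meet. The histone list was 116 to 341 CPM in controls, 23.9 to 54.1 CPM at D1, 620 to 3668 CPM at D2 and 157 to 3291 CPM at D3. It was 179 to 545 CPM at D10 and 122.5 CPM at D21, so that D1 was its lowest time. The ribosome biogenesis list was 2199 to 2214 CPM in controls, 8521 to 9192 CPM at D1, 3780 to 6147 CPM at D2 and 2918 to 4881 CPM at D3, so that D1 was the highest time. Lpl was at 66.2 CPM on average in controls and at 341 CPM at D3 and 965 CPM at D10. Cst3 averaged 57460 CPM in controls, above every D1 and D2 library. Slc2a5 averaged 215 CPM in controls and 25.6 CPM at D3, so that its D2 values stayed far below the controls.

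**Figure D5:**
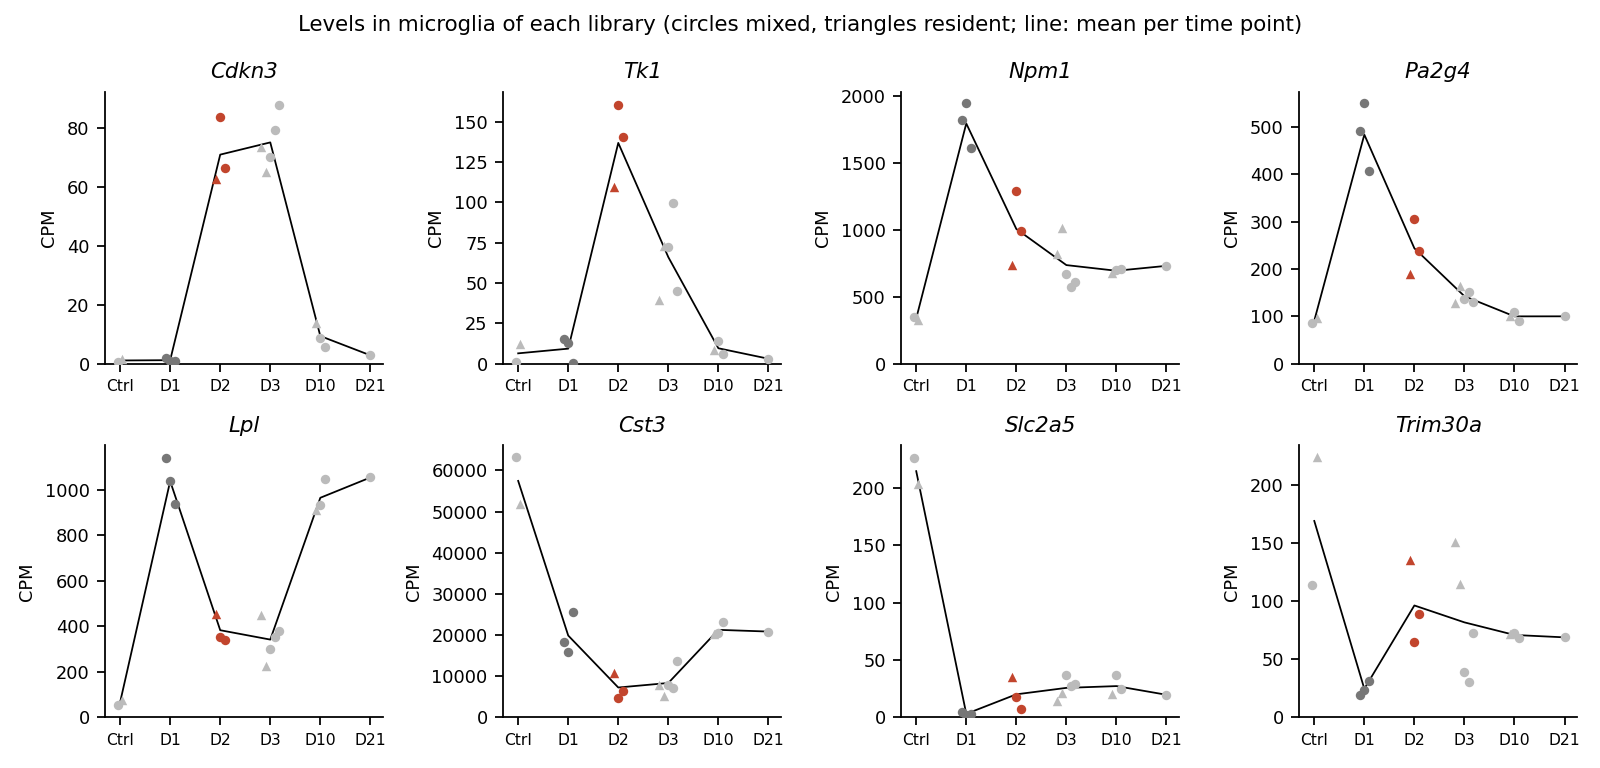
Levels (CPM, vertical axis from 0) of 8 genes in the microglia of each of 17 libraries by time point, with circles for mixed and triangles for resident libraries, D1 in dark grey, D2 in red, other times in light grey and a line through the mean of each time. Cdkn3 is near 0 at D1 and at 62.7 to 83.7 CPM at D2, Npm1 peaks at D1, and for Trim30a the resident libraries of the controls and D3 lie above the mixed ones.

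Of the markers of 12 other cell types 2 genes passed the test, Folr2, of border macrophages, and Snap25, of neurons, both higher at D2 and both not called without D1 mixed 2 or D2 resident 1. Few markers of some types could be tested: none of 6 for T or NK cells, 1 of 8 for dendritic cells, and 2 each for B cells and endothelial cells. Summed monocyte markers were 11.6 to 39.0 CPM at D1 and 51.8 to 88.8 CPM at D2, highest in D2 mixed 2, and summed neuron markers were 2.55 to 17.4 CPM and 37.0 to 74.4 CPM. For both sums, and for the neutrophil sum given above, which at D1 is mostly S100a8 and was lower at D2, the groups do not overlap. Their part in the results above was not tested. Macrophage markers stood at 662 to 891 CPM at D1 and 731 to 969.7 CPM at D2.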

How the data were processed

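Single-cell 3′ transcriptomes of myeloid cells sorted from injured and control mouse cord were used as the authors' deposited raw UMI count matrices with the deposited annotation of cells. Per the submitters' processing notes, Cell Ranger 3.1.0 and the mouse build GRCm38 (mm10) were used. The deposited percent of mitochondrial UMIs per cell was read and used for no test. Doublet removal is not given in the sources used here and no caller was run, and the lowest deposited cell held 713 UMIs. Counts of cell type 1 were summed per library, and the resident and mixed libraries with at least 20 such cells were kept (17). Infiltrating libraries, and 1 D3 library whose labels conflict on its sort, were left out. edgeR 4.0.16 (R 4.3.3) with TMM scaling, filterByExpr by time point, terms for time point and sex (10 residual degrees of freedom) and Benjamini-Hochberg adjustment over 10801 genes gave the contrast. DESeq2 1.42.0, another scaling, no filter, other sets of libraries or cells, equal depth and each library left out were tried as alternatives. Tested on simulated data for this contrast (10279 genes in the step), log2 changes of 1, 2 and 3 were recovered in 7.14%, 86.7% and 100% of cases, with 2 false calls. In that simulation every gene had the same spread between libraries, with no effect of sex, sort or pool and no library set apart. Its false calls are therefore not an error rate of the real contrast. The 23 gene lists, motifs and members were chosen with earlier results of these data known, so no list is independent evidence of its direction. Genes were named as the 15 largest rises and falls among called genes with no overlap between groups and a mean of at least 50 CPM in the higher group, up to 4 called genes with the smallest p per list, the 5 called genes of highest level, and examples a list's count needed. Of 22439 gene symbols 22226 matched the GENCODE M21 annotation that gives the coordinates. Cells were thinned to 1000 UMIs for the share with mitosis UMIs. Transcripts of Xist, Y-linked genes and reporters were left out.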

Additional observations from a re-analysis of the deposited data

How the results depend on the processing

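Of the 101 called genes that were followed by name, 99 kept their direction in all of the 29 alternatives that gave them a value, and 36 were called without each of the 17 libraries in turn. With the sort as a term 73 were called, without the cell cycle clusters 73, without D1 mixed 3 64, without D2 mixed 2 59 and in the mixed libraries alone 10. Apoc4 and Apoc1 reversed in the mixed libraries alone, to -3.32 and -6.74, where D2 mixed 2 had no count of either, and Pcna, not called, lay between -0.00667 (without D1 mixed 3) and 0.447 with each library left out. The count of changed genes (931, with 514 higher and 417 lower) became 1448 (781, 667) with DESeq2, 1128 (772, 356) without an expression filter, 1393 (780, 613) in the D1 and D2 libraries alone, 17 (10, 7) in the mixed libraries alone, 460 (324, 136) with at least 50 cells, which leaves out D2 mixed 2, 518 (275, 243) once the sort was added as a term, 106 (69, 37) at equal depth of 135097 UMIs per library, where 4391 genes were tested, and 483 (260, 223) without clusters 6, 7 and 10. With each library left out in turn the count ranged from 209 to 1181, higher genes from 140 to 665 and lower genes from 69 to 588; the lowest counts are those without D2 resident 1. Without cluster 2 the count was 905 (527, 378), with 811 of the 931 calls kept. In that fit Mt1, Fth1, Hmox1 and Npy changed by -1.88, -1.20, -1.86 and -3.60 and stayed called (edgeR adjusted p = 0.0192, 0.0113, 0.0189 and 0.0339). Cxcl2 changed by -4.59 and was not called (edgeR adjusted p = 0.0691). The causes of these moves were not tested beyond the fewer samples, genes or cells named here. The share of called genes that were higher was 55.2%, and it was 64.1% with median-of-ratios scaling (550 and 308), 68.4% without a filter, 70.4% with at least 50 cells, 65.1% at equal depth and 67.0% without D2 resident 1. With each library left out it ranged from 47.5% (without D3 resident 1, 533 higher and 588 lower) to 70.4% (without D2 mixed 2). That scaling moved the median change of all genes from 0.0229 to 0.0894. The difference in the share of microglia with mitosis UMIs (48.6 points) was 50.5, 59.5 and 54.0 with 1 UMI, 2000 UMIs and no thinning, and 44.8 to 52.4 with each library left out. A fit with the sequencing pool as a term was not run, since pool and day cannot be told apart. No paired analysis was possible because the groups compared share fewer than 2 replicate numbers in the labels; the numbers in the library names used here follow accession order and pair nothing. Depth limits D2 mixed 2 most: its 135097 microglia UMIs put 1 count at 7.40 CPM.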

Other observations

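Other genes with the largest falls, the highest levels or a place in a gene list fell as well, most of them with a call that depended on single libraries. Glrx, glutaredoxin, which reduces protein disulfides with glutathione, was 375, 468 and 606 CPM at D1 and 143, 173 and 207 CPM at D2. It fell by 1.90 on the log2 scale (SE 0.30, edgeR adjusted p = 0.0015), and the call held without each library in turn but not among the mixed libraries alone (adjusted p = 0.124). Ybx3, a cold-shock protein that binds mRNA, was 271, 326 and 240 CPM and then 57.6, 135 and 44.4 CPM, with no overlap. It fell by 2.23 (SE 0.55, edgeR adjusted p = 0.0205), a call lost without D1 mixed 2, D2 resident 1 or D2 mixed 2 (adjusted p = 0.0642 to 0.15). Ctsl, the lysosomal protease cathepsin L, was 4709, 5562 and 7499 CPM and then 4060, 3707 and 3738 CPM. It fell by 1.06 (edgeR adjusted p = 0.0189), a call lost without D1 mixed 3 or D2 mixed 2 (adjusted p = 0.0607 and 0.0758). Plaur, the urokinase receptor, was 132, 125 and 137 CPM and then 65.8, 58.7 and 96.2 CPM. It fell by 1.36 (edgeR adjusted p = 0.0379), a call lost without any 1 of the 6 libraries (adjusted p = 0.0662 to 0.162). Npy, a neuropeptide, was 9.41, 16.5 and 198 CPM and then 5.26, 4.51 and 0 CPM. D1 mixed 3 stood far above the other libraries, and the fitted change of -4.48 (SE 1.12, edgeR adjusted p = 0.0227) was -1.95 without it (adjusted p = 0.114). The Npy call was also lost without D2 resident 1 or D2 mixed 2 (adjusted p = 0.143 and 0.0603).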
